A study of Mus musculus with 6 samples.

Results

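The DNAJ co-chaperones, also called J proteins or HSP40 proteins, were taken by name as every gene symbol of the count tables made of Dnaj, a class letter (a, b or c), a number and, in some symbols, a final a or b. This gave 44 of 33006 gene symbols, with 4 in class A, 13 in class B and 27 in class C. RNA was sequenced from primary pulmonary endothelial cells of C57BL/6 mice, grown in an endothelial growth medium to 80% confluence. For 6 hours the cells of 3 libraries received water (control) and those of 3 libraries received 300 uM hydrogen peroxide, and each library was prepared from 100 ng of total RNA. The labels number the libraries 1 to 3 within a group without naming separate cultures or animals. A p-value here therefore sets the difference between groups against the spread among these libraries, which may be only technical.

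A J protein carries a J domain, which binds an HSP70 chaperone and stimulates its ATPase so that HSP70 closes on an unfolded client, and nucleotide exchange factors then release ADP and reopen the chaperone. Class A proteins resemble bacterial DnaJ, with a glycine and phenylalanine-rich stretch and a zinc-binding region, class B proteins lack the zinc-binding region, and class C proteins share only the J domain and recruit HSP70 to particular sites such as the import motor of mitochondria or the endoplasmic reticulum (ER). Heat shock factor 1 drives several cytosolic members after proteotoxic stress, and the unfolded protein response drives several members of the ER lumen, a compartment that secretory cells such as endothelium use heavily.

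The libraries held 22455388 to 27618679 gene counts, so that 1 read equalled 0.0362 to 0.0448 CPM (counts scaled to a library total of 1000000). H2O2 replicate 3 stood apart from the other H2O2 libraries, its counts differing from theirs at 9.15 and 11.7 chi-square units per gene compared, where every other pair within a group gave 1.63 to 2.94. Without it all 7 members called below were still called, and Dnajc7 was added as lower. The 10 endothelial markers summed to 5228 to 5329 CPM in controls and 5566 to 5674 CPM with H2O2, with 4 of 10 (Pecam1, Tek, Emcn and Plvap) higher by the test used below and 0 lower, and the part of this shift in the changes below was not tested. Of 7 epithelial markers 6 stayed under 1 CPM in every library and 3 (Sftpc, Scgb1a1 and Krt5) had 0 reads, and all 4 markers of ciliated cells stayed under 1 CPM, with Tekt1 at 0. The 5 fibroblast markers summed to 26.6 to 27.9 CPM in controls and 24.1 to 27.7 CPM with H2O2, mostly Dcn (20.9 to 23.8 CPM) and then Pdgfra (3.25 to 5.15 CPM), with Col1a2 at 0, and the 5 markers of smooth muscle and pericytes to 3.83 to 5.26 and 3.83 to 4.46 CPM. Among 5 leukocyte markers Cd68 took 157 to 169 CPM, while Cd3e had 0 reads and Ptprc stayed at or under 0.0385 CPM. None of these markers of other cell types passed the test in either direction. Those with 0 reads were not tested and those with few reads could hardly pass, so this says nothing about them.

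Most of the family was present in these cells. Of the 44 genes 38 passed the filter on low counts (4 of class A, 9 of class B and 25 of class C) and 6 did not. Per kb of transcript, a scale that allows levels to be compared between genes, Dnajc8, whose product belongs to the spliceosome, was the most abundant member at 109 to 119 CPM per kb over the 6 libraries. Dnajc10, which encodes the ER disulphide reductase ERdj5, followed at 89.4 to 103 CPM per kb, and Dnaja2, which encodes a general cytosolic co-chaperone, at 81.5 to 89.4 CPM per kb. Dnajb11, for the ER co-chaperone ERdj3, stood at 64.9 to 72.3 and Dnaja1, for the farnesylated cytosolic co-chaperone DJA1, at 59.9 to 64.1 CPM per kb. The ranges of neighbours among these 5 did not overlap. From Dnajc9 (49.9 to 54.7 CPM per kb) to Dnajc2 (46.6 to 51.9) and Dnajb6 (44.2 to 47.1) each range overlapped that of its next neighbour, while those of Dnajc9 and Dnajb6 did not overlap. The lowest tested members were Dnajc22 (1.43 to 1.89), Dnajc12 (0.459 to 0.820) and Dnajc28 (0.205 to 0.310 CPM per kb). These levels use the length of 1 principal transcript per gene and would shift with another choice of transcript.

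**Figure D1:**
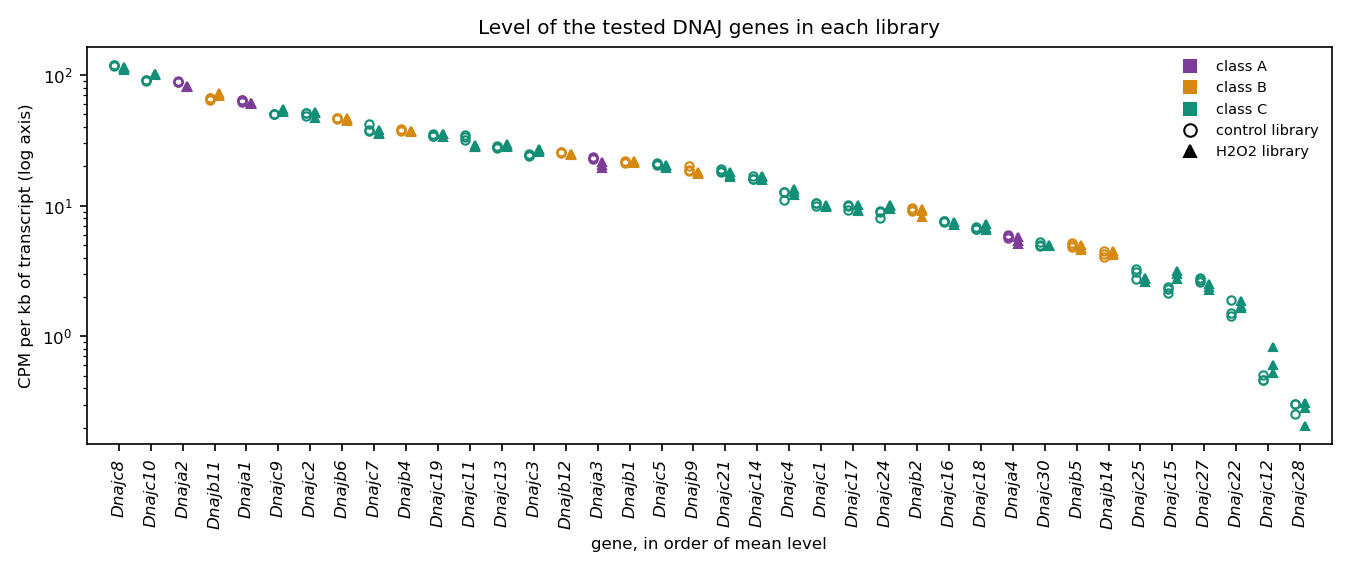
Level of the 38 tested DNAJ genes in each library, as CPM per kb of transcript on a log axis, in order of the mean, with open circles for the 3 control libraries, filled triangles for the 3 H2O2 libraries and colour for the class. Levels run from about 116 CPM per kb for Dnajc8 to 0.277 for Dnajc28, and within a gene the libraries lie close together compared with the distance between genes.

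With H2O2, 4 DNAJ genes rose and 3 fell among the 38 tested. The rises were Dnajc10, Dnajc3 and Dnajb11, all encoding proteins of the ER lumen, and Dnajc15, which encodes the inner membrane protein MCJ of mitochondria. The falls were Dnajc11 and Dnaja3, both of mitochondria, and the cytosolic Dnaja2. The changes were small, from -14.8% for Dnajc11 to 30.7% for Dnajc15. A gene counted as changed at an adjusted p under 0.05 in the quasi-likelihood test of edgeR across all 12924 genes tested, with H2O2 over control as the only term. In these bulk libraries, fewer cells of a type and less RNA per cell cannot be told apart.

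The 7 called members were 18.4% of those tested, beside 20.5% of all genes tested, so the share was near the background and is no result about the family. Rises were 4 of 38 where 9.7% of all genes rose, and falls 3 of 38 where 10.8% of all genes fell. The median log2 fold change was -0.04 over the 38 members and -0.00412 over all genes. The groups did not overlap in 16 members, or 42.1% (7 higher and 9 lower), beside 34.6% of all genes tested (16.5% higher and 18.2% lower). Among members 16 of 38 had an unadjusted p under 0.05, beside 31.5% of all genes tested. Of the 7 called members 6 share no exon bases with another annotated gene, and Dnaja3 shares 4.09% with genes on its own strand and 3.91% with genes on the other.

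**Figure D2:**
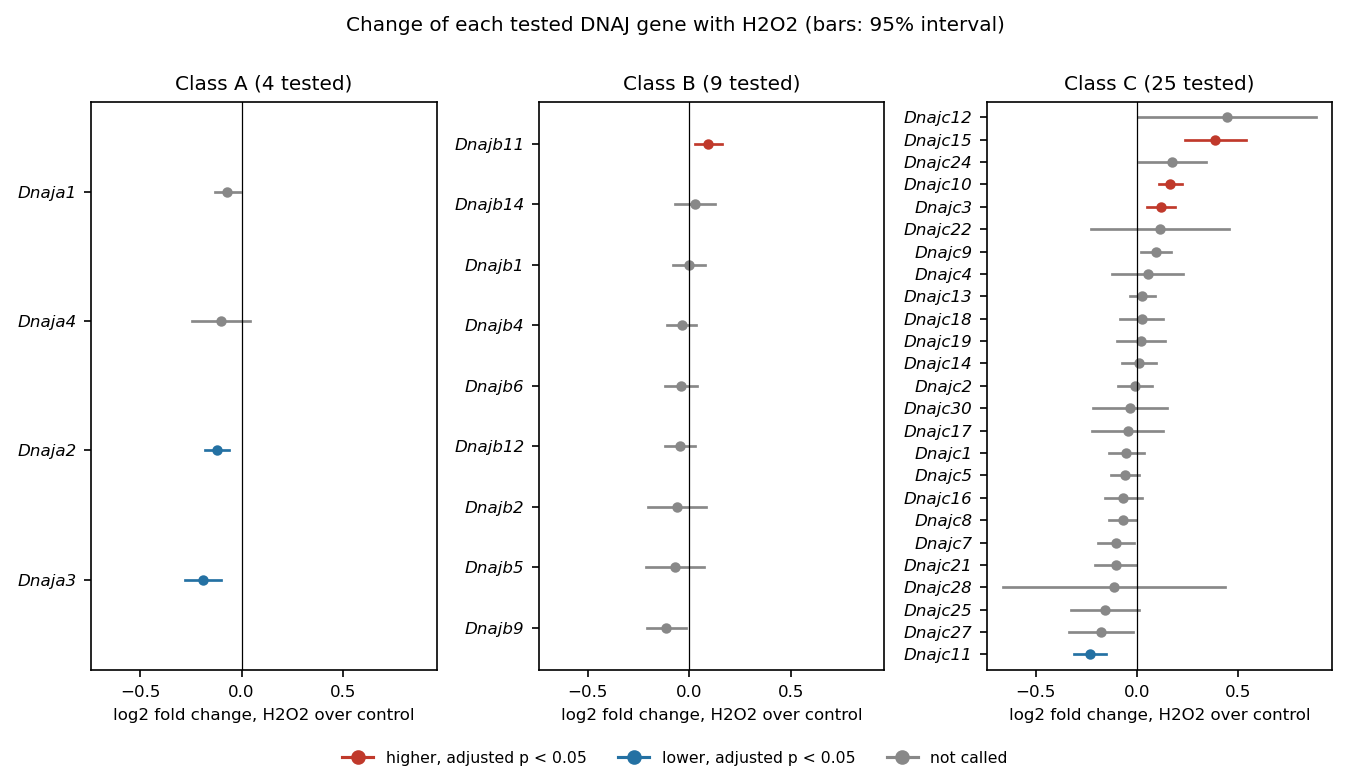
Log2 fold change (H2O2 over control) of each tested DNAJ gene in class A, B and C, with 95% intervals from the edgeR fit as bars, and red, blue and grey for higher, lower and not called at an adjusted p under 0.05. All 4 class A genes lie below 0, and Dnajc12 and Dnajc28, the members with the fewest reads of those shown, have the widest intervals.

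By class, 2 of 4 tested class A genes fell and 0 rose, 1 of 9 class B genes rose and 0 fell, and in class C 3 of 25 rose and 1 fell. Over all genes tested 9.7% rose and 10.8% fell. Class medians of the log2 fold change were -0.11 (A), -0.04 (B) and -0.01 (C). Summed over all 4 members, class A transcripts took 549, 555 and 556 CPM in the controls and 516, 515 and 511 CPM with H2O2, a mean of 553 ± 3.72 against 514 ± 2.29 (SD, n = 3 each). The H2O2 libraries were all below the controls, a difference of -7.16% in the means (-6.35% with upper-quartile factors), and the groups stayed apart without Dnaja2, the largest contributor (294 ± 3.22 against 275 ± 1.69 CPM). Class C summed to 1755 ± 5.40 CPM in controls and 1782 ± 4.21 CPM with H2O2, again without overlap, with 1.52% more in the mean. That difference turned with Dnajc10 left out, to 1388 ± 7.61 and 1371 ± 8.73 CPM (a difference of -1.25%), with overlapping groups. Class B summed to 599 ± 4.08 and 599 ± 2.97 CPM. The whole family summed to 2908 ± 10.2 CPM in controls and 2895 ± 8.50 CPM with H2O2, with overlapping groups. The sign of that last difference depended on the scaling, from -0.445% with TMM factors to 0.425% with upper-quartile factors. With upper-quartile factors the class C difference was 2.41%.

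**Figure D3:**
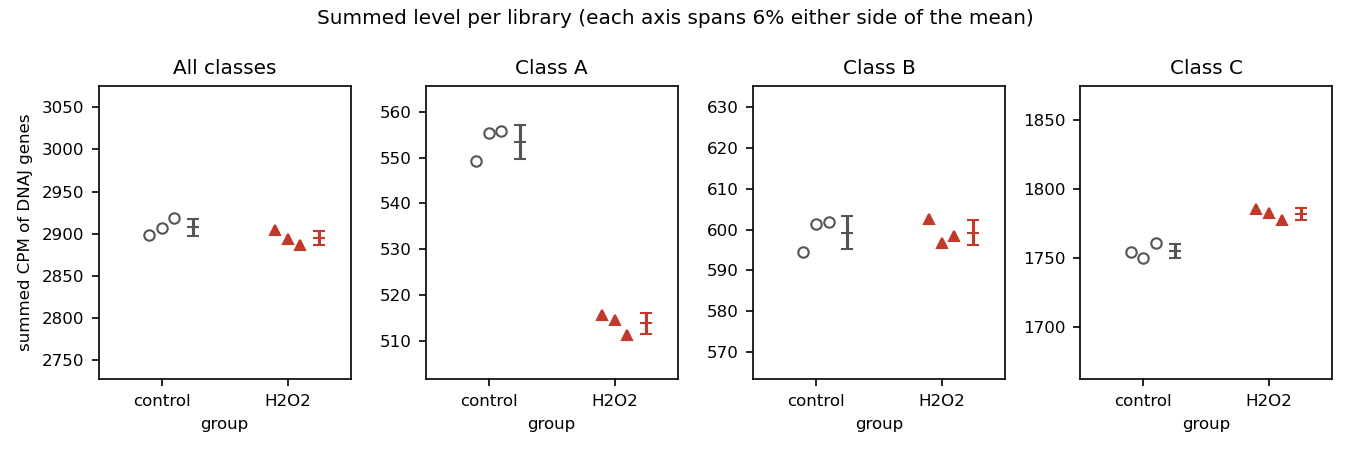
Summed CPM of all DNAJ genes and of each class in each library (open circles, control; filled triangles, H2O2), with mean and SD over 3 libraries at the right of each group. The axes do not start at 0 and each spans 6% either side of its mean: class A lies lower with H2O2 in every library, class C slightly higher, and the class B and family sums overlap.

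In the ER, 3 genes whose products work in the lumen with the HSP70 chaperone BiP rose. They were the only calls among 10 ER members tested, a share of 30% beside 20.5% of all genes tested. Of all genes 9.7% rose, and the median log2 fold change of the ER members was -0.01. Dnajc10 encodes ERdj5, which reduces disulphide bonds of proteins bound for degradation. It took 361, 371 and 369 CPM in the controls and 406, 414 and 414 CPM in the H2O2 libraries. Every H2O2 library was above every control, with a log2 fold change of 0.16 (SE 0.0279, edgeR adjusted p = 9.3e-05). The gene lies on chromosome 2 at 80315466 to 80354043 (mm10, GENCODE M21).

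Dnajc3 encodes p58IPK, a lumenal co-chaperone that also restrains the eIF2 alpha kinase PERK. It took 124, 128 and 126 CPM in the controls and 141, 138 and 132 CPM with H2O2. The groups did not overlap, although H2O2 replicate 3 came close to the highest control, and the log2 fold change was 0.12 (SE 0.0339, edgeR adjusted p = 0.012). Dnajb11 encodes ERdj3, which binds unfolded clients and hands them to BiP, and it took 167, 167 and 163 CPM in the controls and 182, 173 and 177 CPM with H2O2. Again all H2O2 libraries were higher, by 0.09 on the log2 scale (SE 0.0313, edgeR adjusted p = 0.032). The call of Dnajb11 ended without control replicate 2 (edgeR adjusted p = 0.071), control replicate 3 (0.15) or H2O2 replicate 1 (0.11), against 0.0040 to 0.15 over all alternatives. That of Dnajc3 ended without H2O2 replicate 1 (edgeR adjusted p = 0.059, against 0.0028 to 0.059). Dnajc3 lies on chromosome 14 at 118937976 to 118981697 and Dnajb11 on chromosome 16 at 22857845 to 22879634.

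The promoters of these 3 genes are shown with matches to the ER stress element, which is CCAAT, any 9 bases and CCACG. The unfolded protein response is known to act through this element. Whether that response had a part in the rises was not tested. Each line gives the 250 bases before the RefSeq start (build GRCm38.p6, plus strand, 5′ to 3′) with matches in capitals, on both strands, to that element, to its last part CCACG alone, and to the heat shock element pairs GAANNTTC and TTCNNGAA.
Dnajc3, chr14:118937682-118937931: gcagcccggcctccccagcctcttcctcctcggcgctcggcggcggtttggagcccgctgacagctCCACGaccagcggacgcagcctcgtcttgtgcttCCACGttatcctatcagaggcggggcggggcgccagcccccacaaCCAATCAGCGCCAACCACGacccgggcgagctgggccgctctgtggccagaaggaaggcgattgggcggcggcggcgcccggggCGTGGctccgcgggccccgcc
Dnajc10, chr2:80315216-80315465: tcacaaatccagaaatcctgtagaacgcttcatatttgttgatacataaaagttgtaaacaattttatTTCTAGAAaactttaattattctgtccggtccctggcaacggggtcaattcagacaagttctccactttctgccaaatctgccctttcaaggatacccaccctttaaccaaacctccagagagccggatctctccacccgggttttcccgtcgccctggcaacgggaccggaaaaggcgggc
Dnajb11, chr16:22857595-22857844: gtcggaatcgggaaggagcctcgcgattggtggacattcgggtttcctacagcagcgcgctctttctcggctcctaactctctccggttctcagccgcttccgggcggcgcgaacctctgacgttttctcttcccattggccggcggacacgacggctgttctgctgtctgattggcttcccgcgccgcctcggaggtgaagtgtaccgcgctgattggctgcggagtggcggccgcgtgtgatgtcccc
The Dnajc3 window held 1 full element, 105 to 87 bases before the start, and 4 matches to CCACG, of which 1 is the end of that element. The Dnajc10 window held 1 match to TTCNNGAA, and the Dnajb11 window none of these letters. RefSeq windows were found for 36 of the 44 members (49 windows), and Dnajc3 was the only member with the full element, which 37 of 32851 mouse promoter windows (0.113%) hold. One of those others is the window of Hspa5, the gene of BiP, with the element 65 to 47 bases before the start. Hspa5 fell with H2O2 (log2 fold change -0.30, edgeR adjusted p = 5.5e-09), while Dnajc3 rose. CCACG occurs in 28.3% of all windows, GAANNTTC in 6.69% and TTCNNGAA in 7.17%. The triple heat shock element, GAANNTTC followed by NNGAA, which contains both pairs and occurs in 0.466% of windows, was found among members in Dnajb6 alone. Beside Dnajb6 and Dnajc10, members with a pair were Dnaja1, Dnaja4 and Dnajc27 (GAANNTTC) and Dnajb4 (TTCNNGAA). The element TGACGTGG, bound by factors of the unfolded protein response and present in 0.563% of windows, occurred in Dnajc25 alone.

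The 4th member of the unfolded protein response list, Dnajb9, encodes ERdj4, which keeps the stress sensor IRE1 inactive through BiP. Its 45.02, 46.5 and 49.8 CPM in the controls compared with 43.6, 44.4 and 42.6 CPM with H2O2. The H2O2 libraries were all lower, but the difference did not pass the test (log2 fold change -0.11, SE 0.0462, edgeR adjusted p = 0.087, and 0.042 to 0.38 over the alternatives). It was called lower when transcript length and GC content entered as an offset (edgeR adjusted p = 0.047) and without control replicate 1 (0.042). In the main test 3 of this list of 4 rose and 0 fell, where 9.7% of all genes rose and 10.8% fell. The list, like the others here, was chosen with earlier results of these data known. Its share is therefore a description and no evidence of enrichment.

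The remaining 6 ER members did not pass. Among them Dnajc1 (54.4 to 57.8 CPM in controls, 53.8 to 55.3 CPM with H2O2), an ER membrane protein that binds ribosomes, had a log2 fold change of -0.05. Dnajb12 and Dnajb14, membrane proteins whose J domain faces the cytosol and which serve ER-associated degradation, stood at -0.05 and 0.03. Dnajc16 stood at -0.07, Dnajc18 at 0.02 and Dnajc25 at -0.16 (SE 0.0826). Dnajb12 was the only 1 of these 6 whose groups did not overlap, beside 34.6% of all genes tested.

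Among the 5 members listed here as mitochondrial there was 1 rise and there were 2 falls. Of all genes 9.7% rose and 10.8% fell, and the median log2 fold change of these 5 was -0.03. Dnajc15 encodes MCJ, a partner of the presequence translocase that restrains respiratory complex I. It took 14.2, 13.2 and 14.8 CPM in the controls and 17.0, 18.5 and 19.6 CPM with H2O2. This was the largest change among called members, with no overlap, at 0.39 on the log2 scale (SE 0.0728, edgeR adjusted p = 3.1e-04), and the 95% interval ran from 0.24 to 0.54. Dnajc15 lies on chromosome 14 at 77820681 to 77875125. Its paralog Dnajc19, the J protein of the import motor, took 22.3 to 23.2 CPM in controls and 22.1 to 23.5 CPM with H2O2, with a log2 fold change of 0.02 and a 95% interval of -0.10 to 0.14. A processed pseudogene, Dnajc19-ps, covers 53.3% of the Dnajc19 transcript at 95% identity or more, so its counts are uncertain.

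Dnajc11 encodes a protein bound to the complexes that shape mitochondrial cristae. It took 100.0, 109.6 and 106 CPM in the controls and 88.6, 91.2 and 89.2 CPM with H2O2. All H2O2 libraries were lower, with a log2 fold change of -0.23 (SE 0.0378) and the smallest adjusted p of the family (edgeR adjusted p = 5.7e-05). It lies on chromosome 4 at 151933691 to 151982137. Dnaja3, also called Tid1, encodes the matrix co-chaperone of the mitochondrial HSP70. Its transcript stood at 61.8, 60.4 and 62.5 CPM in the controls and at 54.0, 56.9 and 51.1 CPM with H2O2. The groups did not overlap, with a log2 fold change of -0.19 (SE 0.0433, edgeR adjusted p = 0.0023). It lies on chromosome 16 at 4639989 to 4707695. Dnajc30, a mitochondrial protein that binds ATP synthase, took 8.11 to 8.77 CPM over all libraries and did not pass (-0.03). Bud23, on the other strand, shares 26.2% of its exon bases.

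In the cytosol, 1 of 9 members fell and 0 rose, where 10.8% of all genes fell and 9.7% rose. All 9 had a log2 fold change below 0, although Dnajb1 lay above 0 with each of the other scalings. Their median was -0.07, beside -0.00412 over all genes. Dnaja2 took 259, 261 and 259 CPM in the controls and 241, 238 and 238 CPM with H2O2. It fell by 7.96%, with no overlap and very little spread, for a log2 fold change of -0.12 (SE 0.0284, edgeR adjusted p = 0.0030). It lies on chromosome 8 at 85537633 to 85555344. Dnaja1 was next with 212, 216 and 216 CPM against 205, 202 and 206 CPM. Its H2O2 libraries were all lower, but at -0.07 (SE 0.0292) it did not pass (edgeR adjusted p = 0.093, and 0.026 to 0.24 over the alternatives), and it was called lower with the length and GC offset (-0.09, edgeR adjusted p = 0.029). Genes on the other strand share 9.93% of its exon bases, and 3 other loci, the longest match being the processed pseudogene Gm7816, carry part of its transcript at 95% identity or more.

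The heat-inducible members did not pass in either direction, 0 of 4 with edgeR, DESeq2 or limma-voom, where edgeR called 20.5% of all genes. Of the 4, 1 (Dnaja1) had an unadjusted p under 0.05, beside 31.5% of all genes. Dnajb1 encodes the classical HSP40 of the heat shock response, and it took 63.7, 64.4 and 65.6 CPM in the controls and 63.3, 65.5 and 64.4 CPM with H2O2. The groups overlapped fully, at -0.00271 on the log2 scale with a 95% interval of -0.08 to 0.08. Dnajb4 stood at 94.3, 93.9 and 92.5 against 91.5, 92.2 and 89.7 CPM, a log2 fold change of -0.04. Dnaja4 stood at 16.9, 17.7 and 17.7 against 15.3, 17.4 and 16.1 CPM (-0.10), and Wdr61, on the other strand, shares 44.1% of its exon bases. Dnaja1, the other heat-inducible member, is given above.

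Among the other cytosolic members, Dnajb6, which keeps polyglutamine proteins from aggregating, took 73.9, 75.5 and 75.7 CPM in the controls and 70.9, 74.7 and 73.1 CPM with H2O2. The groups overlapped (-0.04, edgeR adjusted p = 0.50), and 4 other loci, the longest match being the processed pseudogene Gm5917, carry part of its transcript at 95% identity or more. Dnajb2, which binds ubiquitin chains, stood at -0.06 and Dnajb5 at -0.07. Dnajc7, a tetratricopeptide co-chaperone of both HSP70 and HSP90, stood at -0.10 (SE 0.0432, edgeR adjusted p = 0.094) with control replicate 1 (97.97 CPM) far above the other controls (86.3 and 88.9 CPM).

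Members of the nucleus and the ribosome gave 0 calls among 5 with edgeR, DESeq2 or limma-voom, where edgeR called 20.5% of all genes. An unadjusted p under 0.05 was found for 3 of 5, beside 31.5% of all genes. Dnajc8 took 167, 167 and 164 CPM in the controls and 162, 153 and 159 CPM with H2O2. The groups did not overlap, but the difference of -0.07 did not pass (edgeR adjusted p = 0.13, and 0.035 to 0.40 over the alternatives), and it was called lower with the length and GC offset (-0.09, edgeR adjusted p = 0.038). Dnajc9, a chaperone of histones H3 and H4, took 81.3 to 82.0 CPM in controls and 85.6 to 89.3 CPM with H2O2. It lay higher in every H2O2 library, at 0.09 (SE 0.0361), and missed the threshold (edgeR adjusted p = 0.066). Dnajc2, which forms the ribosome-associated complex with the HSP70 protein encoded by Hspa14, took 103 to 109.8 CPM in controls and 99.4 to 111 CPM with H2O2 (-0.01). Dnajc21, whose yeast counterpart acts in 60S subunit maturation, stood at -0.10 (edgeR adjusted p = 0.15), and Dnajc17 at -0.05. A pseudogene, Gm6257, covers 90.5% of the Dnajc17 transcript at 95% identity or more.

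Of 4 members that work on vesicles and endosomes 2 were tested, with 0 calls by any of these 3 tools and 0 at an unadjusted p under 0.05. With edgeR these shares were 20.5% and 31.5% of all genes. Dnajc5 encodes cysteine string protein, a co-chaperone of exocytosis, and took 134 to 139 CPM in controls and 127 to 135 CPM with H2O2 (-0.06, edgeR adjusted p = 0.25). Dnajc13, which acts on endosomal sorting, took 222 to 228 CPM in controls and 224 to 236 CPM with H2O2 (0.03). Dnajc6, which encodes the clathrin-uncoating protein auxilin of neurons, and Dnajc5b had 0 reads in all libraries, which allows up to 0.109 to 0.134 CPM per library, taking 3 counts as the limit and counting error only. The widely expressed auxilin gene Gak, outside the Dnaj symbols, took 182 ± 4.02 CPM in controls and 165 ± 1.83 CPM with H2O2 (SD, n = 3 each), and fell by 0.14 on the log2 scale (edgeR adjusted p = 0.0012). Sec63, a J-domain gene of the ER translocon also without a Dnaj symbol, stood at 0.08 and did not pass (edgeR adjusted p = 0.086).

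The other 11 members were on none of the location lists used here, although some may belong to a listed compartment. Of them 7 were tested, with 0 calls by any of the 3 tools. Of these 7, 3 had an unadjusted p under 0.05. Over all genes edgeR called 20.5%, and 31.5% had an unadjusted p under 0.05. Dnajc12 had the largest log2 fold change of the family at 0.45, but with 1.39 to 1.53 CPM in controls and 1.59 to 2.48 CPM with H2O2 its SE was 0.213 and it did not pass (edgeR adjusted p = 0.15). Dnajc24, an enzyme cofactor of diphthamide synthesis on elongation factor 2, took 9.69 to 10.8 CPM in controls and 11.2 to 12.03 CPM with H2O2 (0.17, edgeR adjusted p = 0.13). Dnajc27, which carries a small GTPase domain, took 12.1 to 13.2 and 10.7 to 11.7 CPM (-0.18, edgeR adjusted p = 0.11). These 3 of the 7 had groups that did not overlap, beside 34.6% of all genes tested. Dnajc14, which escorts receptors from the ER but was not counted among the 10 ER members, stood at 0.01. Dnajc4 stood at 0.05, Dnajc22 at 0.11 and Dnajc28 at -0.11 (SE 0.267). The other 4 were not tested, and Dnajb3 and Dnajb8 are known mainly from testis. Dnajb13, a radial spoke protein of cilia, had 46 reads over all libraries, Dnajb7 had 25, Dnajb3 had 4 and Dnajb8 had 0.

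The HSP70 genes that passed the test all fell. Of 10 HSP70 genes tested 4 fell and 0 rose, a share called of 40% beside 20.5% of all genes, with a median log2 fold change of -0.11. Hspa5, which encodes BiP, took 2321 to 2414 CPM in controls and 1905 to 1970 CPM with H2O2 (-0.30, SE 0.0275, edgeR adjusted p = 5.5e-09). The stress-inducible Hspa1b took 46.6 ± 1.74 against 36.7 ± 1.21 CPM (-0.34), the constitutive Hspa8 2332 ± 78.2 against 2092 ± 69.9 CPM (-0.16, edgeR adjusted p = 3.9e-04), and the mitochondrial Hspa9 948 ± 10.7 against 872 ± 4.92 CPM (-0.12, edgeR adjusted p = 0.0013; SD, n = 3 each). Hspa1a matches 78.5% of the Hspa1b transcript at 95% identity or more, so reads can be set aside or split between them and the level of Hspa1b is uncertain. So is that of Hspa8, with 6 such copies, of which the processed pseudogene Gm6210 covers 81.1% of its transcript. Hspa1a had under 1 CPM in every library. Hspa14, the partner of Dnajc2, missed the threshold (-0.09, edgeR adjusted p = 0.053).

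Of 13 nucleotide exchange factors 2 rose and 4 fell (46.2% called, beside 20.5% of all genes), with a median log2 fold change of -0.04. Hsph1, an HSP110 protein of the heat shock response, took 263 ± 2.92 against 236 ± 5.03 CPM (-0.16, edgeR adjusted p = 2.9e-04), and Grpel2, an exchange factor of the mitochondrial HSP70, 35.5 ± 0.833 against 29.9 ± 0.885 CPM (-0.25, edgeR adjusted p = 6.4e-04; SD, n = 3 each). Hspa4 (-0.08, edgeR adjusted p = 0.046) and Bag5 (-0.13, edgeR adjusted p = 0.030) fell too, near the threshold. Hspa4 was no longer called with any of the 3 other scalings, with either other filter, or without control replicate 2, control replicate 3, H2O2 replicate 1 or H2O2 replicate 2. Bag5 was no longer called with upper-quartile factors, with the DESeq2 test, or without any single library other than control replicate 3. Hspbp1 (0.16) and Bag1 (0.11, the most abundant of the list per kb) rose, although with the length and GC offset neither was called and Bag1 stood at 0.03. The call of Bag1 also ended without control replicate 1, control replicate 2 or H2O2 replicate 1, and its edgeR adjusted p ran from 0.011 to 0.57 over the alternatives. The ER factors Sil1 (-0.01) and Hyou1 (-0.04) and the mitochondrial Grpel1 (0.07) did not pass. Of 3 other cofactors, Stip1, which links HSP70 to HSP90, fell by 0.20 (edgeR adjusted p = 5.7e-06) and Stub1, the ubiquitin ligase CHIP, rose by 0.23 (edgeR adjusted p = 0.0018), though Jmjd8, on the other strand, shares 42.3% of its exon bases.

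Reads of a J gene per 1000 reads of the HSP70 gene of its compartment do not depend on the scaling of the libraries. In all 10 such ratios were computed, for pairs chosen after the values were seen. Dnajc10 gave 156, 154 and 154 reads per 1000 reads of Hspa5 in the controls and 213, 217 and 210.4 with H2O2, 1.38 times as many. For Dnajc3 the values were 53.2, 53.0 and 52.6 against 73.8, 72.1 and 67.2, and for Dnajb11 72.1, 69.4 and 67.9 against 95.3, 90.7 and 89.8. All 3 ratios were higher in every H2O2 library than in every control, and so was that of Dnajb9 (19.8 ± 0.825 against 22.6 ± 0.843; SD, n = 3 each). The larger part of each difference lies in the denominator, as Hspa5 had a log2 fold change of -0.30. Dnajc10, Dnajc3 and Dnajb11 themselves stood at 0.16, 0.12 and 0.09. Dnajb9 itself stood at -0.11, so its higher ratio came from Hspa5. In mitochondria Dnajc15 per 1000 reads of Hspa9 went from 14.8 ± 0.680 to 21.0 ± 1.42 without overlap, while Dnaja3 per 1000 reads of Hspa9 overlapped (65.0 ± 0.393 against 62.0 ± 3.67). Dnajc19 per 1000 reads of Hspa9 was 23.9 ± 0.372 against 26.3 ± 0.773 without overlap, with Dnajc19 itself at 0.02 and Hspa9 at -0.12. In the cytosol Dnajb1 per 1000 reads of Hspa8 was 27.7 ± 0.925 against 30.8 ± 1.38 without overlap, and Dnaja2 per 1000 reads of Hspa8 overlapped (111 ± 3.24 against 114 ± 3.89). Dnajb1 per 1000 reads of Hspa1b was 1386 ± 42.5 against 1756 ± 66.4, also without overlap. Dnajb1 itself stood at -0.00271, Hspa8 at -0.16 and Hspa1b at -0.34, so both higher Dnajb1 ratios came from the HSP70 genes. A two-sided exact permutation test of 3 libraries against 3 cannot go below p = 0.10, which the ratios without overlap reached (adjusted over the 10 ratios, exact permutation p = 0.12), so none can pass a threshold of 0.05 by this test.

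**Figure D4:**
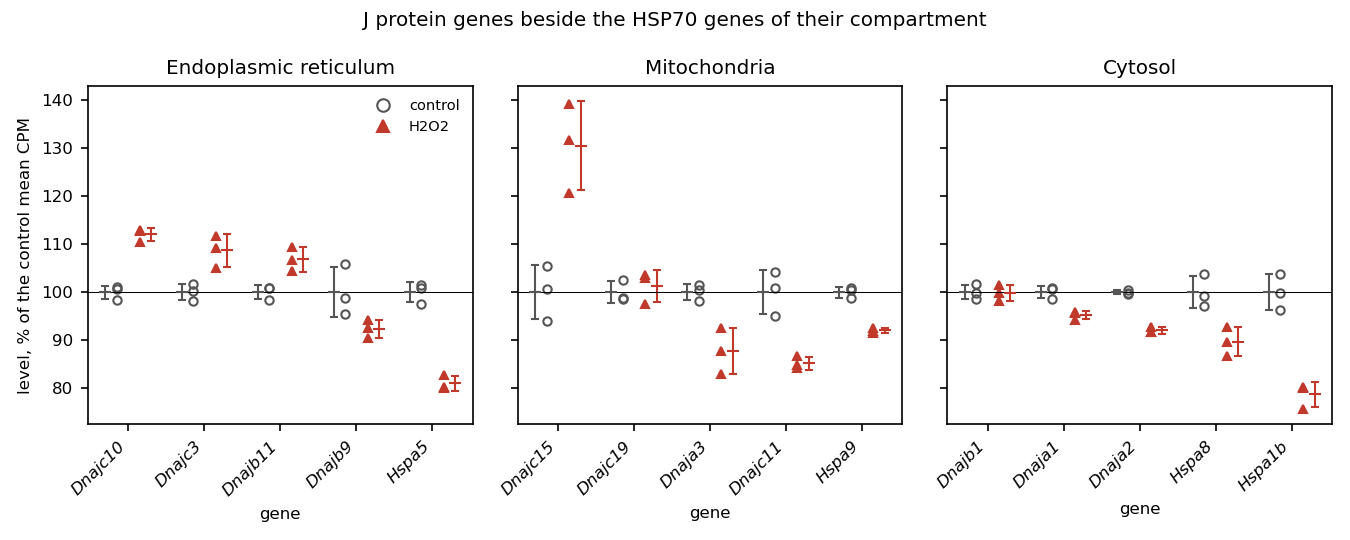
Level of J protein genes and the main HSP70 genes of the ER, mitochondria and cytosol in each library, in percent of the control mean CPM (open circles, control; triangles, H2O2; bars, mean and SD over 3 libraries; the axis does not start at 0). In the ER panel Dnajc10, Dnajc3 and Dnajb11 lie above the control level and Hspa5 at 80.1 to 82.8% of it, in mitochondria Dnajc15 lies at 121 to 139%, and Dnajb1 stays at the control level.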

How the data were processed

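The deposited values are raw read counts per gene symbol, 1 table for each of the 6 libraries. The submitters' processing notes name build mm10, HTSeq, STAR 2.5.3, DESeq2, cutadapt and bcl2fastq 2.17.1.14; which annotation and strand option HTSeq used is not given in the sources used here. Whether reads of overlapping genes on opposite strands were kept apart is therefore not known. The 5 HTSeq summary classes were left out (no feature 4.76% to 5.46%, ambiguous 3.17% to 3.30% and not uniquely aligned 11.0% to 11.7% of reads).

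Of 33006 genes, 12924 passed filterByExpr and entered edgeR 4.0.16 (R 4.3.3) with TMM factors, the quasi-likelihood test and Benjamini-Hochberg adjustment at 0.05. CPM values use the TMM factors. Alternatives were other scaling factors, DESeq2 1.42.0, limma-voom (limma 3.58.1), a looser and a stricter filter, the replicate number as a block, a loess offset (span 0.3) for length and GC content, and fits without each library. Transcripts, positions and overlaps came from GENCODE M21 (same assembly as mm10; lengths for 94.6% of tested genes), taking the APPRIS principal transcript of best support. The methods were checked on simulated counts.

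The members and lists were chosen with earlier results of these data known. Values in every library are given for members that passed without overlap between groups, the 2 most abundant of each class per kb, and the heat-inducible and unfolded protein response members; other members named with values fall outside that rule and were chosen after their values were seen.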

Additional observations from a re-analysis of the deposited data

How the results depend on the processing

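The 7 called members were called with every other scaling, both filters, DESeq2's test and limma-voom, and Dnajc9 was added with upper-quartile factors and with the stricter filter. With the length and GC offset, alone or with the replicate block, 6 members were lower in place of 3 (Dnaja1, Dnajb9 and Dnajc8 added), with 1 in class B and 2 in class C. The offset also left 0 exchange factors higher, and with upper-quartile factors 2 of them were lower. Fits without 1 library gave 2 to 4 members higher and 3 to 4 lower, 0 to 1 higher and 0 to 1 lower in class B, 1 to 2 lower in class C, 1 to 2 exchange factors higher and 2 to 3 lower, and 844 to 1303 genes lower in all. The lowest counts of members higher (2) and genes lower (844) came without H2O2 replicate 1. Class B had 0 higher without control replicate 2, control replicate 3 or H2O2 replicate 1, and 1 lower (Dnajb9) without control replicate 1; class C had 2 lower (with Dnajc7) without control replicate 2 or H2O2 replicate 3. Exchange factors had 2 lower without control replicate 2, H2O2 replicate 1 or H2O2 replicate 2, and 1 higher without control replicate 1, control replicate 2 or H2O2 replicate 1. Against the background, the 6 members lower with the offset were of 38, where 11.1% of all genes were lower. Summed levels under other scalings and the sums without Dnajc10 or Dnaja2 were chosen after seeing the data: class C differed by 1.80% with DESeq2 size factors, 2.41% with upper-quartile factors and 1.98% with library size, class A by -6.35% and class B by 0.876% with upper-quartile factors, and the family by 0.425% with upper-quartile factors and 0.00825% with library size.

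With the replicate block 4 members were higher and 3 lower, and 1294 and 1444 of all genes. Same-numbered libraries had correlations of deviations from the group means of 0.0022, 0.030 and -0.026, so the numbers give no sign of pairing. Dnajb1, not called anywhere, took both signs. Members with few reads, such as Dnajc12 and Dnajc28, allow only wide intervals.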

Other observations

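Dnajc5g, whose symbol ends in a letter outside the naming rule, had 0 reads in all 6 libraries. Across the 38 tested members the log2 fold change and the transcript length had a Spearman correlation of -0.030, given as a description; over 12230 genes tested with a length it was -0.14. The points share the same 6 libraries.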
